A study of Mus musculus with 3 samples.

Results

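The regions described here are the Foxp4 peaks of beige adipocytes that lay at a gene's transcription start site (TSS) and outside the H3K27ac peaks of the same cells. They were selected on measured values: a peak of the deposited Foxp4 list on chromosomes 1 to 19 was a member when the deposited distance from its centre to the TSS was at most 1000 bp and when it shared no base with any of the 17564 peaks of the deposited H3K27ac list. By this rule 916 of 1595 Foxp4 promoter peaks were members (57.4%, exact 95% interval 55.0 to 59.9), out of 16856 Foxp4 peaks on these chromosomes. The members were assigned to 902 genes, and 834 of them to protein-coding genes. The other 679 Foxp4 promoter peaks (42.6%) overlapped H3K27ac by 1 bp or more and served as the comparison, here called acetylated promoter peaks. For scale, 5407 protein-coding genes on these chromosomes (26.2%) had an H3K27ac peak within 1000 bp of a TSS, a share of genes and not of peaks.

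The cells were C57BL/6 beige adipocytes, differentiated in culture from stromal-vascular fraction (SVF) cells of inguinal white adipose tissue (iWAT). Per the labels' protocols, confluent cells were induced with insulin, isobutylmethylxanthine, dexamethasone, T3 and troglitazone and then kept with insulin, T3 and troglitazone. There was 1 Foxp4 ChIP library and 1 H3K27ac ChIP library, with no replicate, and the labels name an antibody for Foxp4 only. Intervals and p-values below therefore describe these lists of peaks and cover counting error only, not the spread between cultures, and the sequencing depth is unknown.

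Foxp4 is a forkhead transcription factor of the Foxp group, whose members are known mainly as repressors and bind DNA as dimers. H3K27ac is acetylation of lysine 27 of histone H3, a mark of active promoters and enhancers that flanks the nucleosome-poor stretch at an active start site. Many mammalian promoters lie in CpG islands, stretches rich in G, C and the CG pair. Beige adipocytes are fat cells that arise in white fat and can burn fuel for heat through the mitochondrial protein Ucp1.

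H3K27ac peaks were assigned to 8 of 9 fat cell genes looked up as a check of the cells, among them Pparg, Cebpa, Plin1 and Fabp4, and not to Adipoq. Of 6 beige and brown fat genes, Ppargc1a and Ebf2 had an H3K27ac peak, and Ucp1, Cidea, Prdm16 and Dio2 had none. Of 15 genes of other cell types, 6 had an H3K27ac peak, and Cd68, a macrophage gene, was the single one with it at a promoter.

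The sequence under the members is shown first for those that held the forkhead letters TGTTTAC on either strand, since these are letters that forkhead factors are known to bind. The 4 highest-scoring eligible members are given, 5′ to 3′ on the gene's strand, as the bases of the peak that lie upstream of the TSS within the RefSeq promoter window and outside every RefSeq gene (RefSeq, GRCm38.p6, the assembly of mm10; stretches of 100 bases or more). Capitals mark TGTTTAC or its reverse complement GTAAACA. Etv5 encodes an ETS transcription factor, Stx2 a syntaxin of membrane fusion, Cfap20 a protein of cilia and Cnnm3 a membrane protein of magnesium handling. Stx2, Cfap20 and Cnnm3 were chosen after their sequences were seen.
Etv5, chr16:22439571-22439820, minus strand: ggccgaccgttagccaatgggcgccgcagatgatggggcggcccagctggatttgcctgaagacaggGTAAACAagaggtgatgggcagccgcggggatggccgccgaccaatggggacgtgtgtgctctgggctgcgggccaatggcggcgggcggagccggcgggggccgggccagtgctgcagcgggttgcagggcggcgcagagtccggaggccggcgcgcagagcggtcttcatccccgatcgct
Stx2, chr5:129008712-129008822, minus strand: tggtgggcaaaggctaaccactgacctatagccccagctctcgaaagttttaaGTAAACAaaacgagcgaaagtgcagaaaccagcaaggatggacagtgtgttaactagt
Cfap20, chr8:95434905-95435119, minus strand: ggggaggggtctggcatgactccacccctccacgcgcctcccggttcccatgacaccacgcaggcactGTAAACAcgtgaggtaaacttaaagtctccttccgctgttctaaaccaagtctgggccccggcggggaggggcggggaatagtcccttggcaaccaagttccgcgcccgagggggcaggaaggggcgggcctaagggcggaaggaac
Cnnm3, chr1:36511695-36511866, plus strand: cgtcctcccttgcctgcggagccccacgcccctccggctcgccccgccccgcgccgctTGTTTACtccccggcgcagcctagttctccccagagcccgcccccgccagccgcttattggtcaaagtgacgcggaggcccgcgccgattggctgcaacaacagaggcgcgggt
Counted from the TSS, with negative positions upstream, the letters began at -183 in Etv5, -197 in Stx2, -182 in Cfap20 and -114 in Cnnm3. The Foxp4 peak scores at these promoters were 71, 55, 44 and 40, in the same order.

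The forkhead letters were rare, and their share in member promoters did not differ detectably from that in acetylated ones. A RefSeq promoter window, which holds 250 bases before and 50 bases from the TSS on, was found for 704 members, and 343 of these windows (48.7%) shared bases with the peak. TGTTTAC on either strand was in 27 of the 704 windows (3.84%), in 17 of 543 windows of acetylated promoter peaks (3.13%) and in 3.65% of all 32851 windows. The difference between both groups of Foxp4 promoters was 0.704 percentage points (adjusted p = 0.616, Fisher's exact test, two-sided, adjusted by Benjamini-Hochberg over 8 peak features), and in 13 of the 27 members the letters lay inside the peak. The shorter core TGTTTA, which every TGTTTAC also holds, was in 11.8% of member windows, 8.47% of acetylated ones and 13.4% of all windows. A match is a description of letters, and its absence says nothing about Foxp4 outside this window.

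Members differed widely in CpG content, and the following promoters show that range, with every CG pair in capitals. The first 3 are the highest-scoring eligible members without forkhead letters in the stretch, and the last has the lowest CpG ratio. Mgst3 encodes a microsomal glutathione transferase, Wbp1 a protein that binds WW domains, Rrm1 the large subunit of ribonucleotide reductase and H2-Eb1 a chain of the class II histocompatibility molecule. H2-Eb1 was chosen after its sequence was seen.
Mgst3, chr1:167393842-167394058, minus strand: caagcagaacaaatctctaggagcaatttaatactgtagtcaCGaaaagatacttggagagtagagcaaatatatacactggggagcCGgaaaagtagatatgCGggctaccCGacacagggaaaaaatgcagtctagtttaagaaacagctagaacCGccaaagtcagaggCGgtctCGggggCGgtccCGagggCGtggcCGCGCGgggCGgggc
Wbp1, chr6:83121462-83121711, minus strand: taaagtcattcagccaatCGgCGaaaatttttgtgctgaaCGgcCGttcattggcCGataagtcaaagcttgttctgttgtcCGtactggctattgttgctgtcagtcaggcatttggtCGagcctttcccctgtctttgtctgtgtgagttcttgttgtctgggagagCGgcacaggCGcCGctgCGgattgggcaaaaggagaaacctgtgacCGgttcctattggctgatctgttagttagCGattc
Rrm1, chr7:102441540-102441694, plus strand: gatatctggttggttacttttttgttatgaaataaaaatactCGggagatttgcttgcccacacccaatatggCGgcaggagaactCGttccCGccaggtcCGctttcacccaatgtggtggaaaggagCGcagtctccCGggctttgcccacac
H2-Eb1, chr17:34305617-34305854, plus strand: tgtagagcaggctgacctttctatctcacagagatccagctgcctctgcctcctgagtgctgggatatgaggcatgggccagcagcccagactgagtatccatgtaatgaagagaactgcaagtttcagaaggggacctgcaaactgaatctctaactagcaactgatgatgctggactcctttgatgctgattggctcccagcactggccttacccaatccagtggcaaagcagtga
The stretch of Mgst3 held 14 CG pairs in 217 bases, that of Wbp1 13 in 250, that of Rrm1 7 in 155 and that of H2-Eb1 none in 238. The nearest H3K27ac peak lay 39 bp from the Mgst3 peak, 11744 bp from that of Wbp1, 38298 bp from that of Rrm1 and 3570 bp from that of H2-Eb1.

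Most members lay far from H3K27ac, and a smaller group lay just beside it. The gap to the nearest H3K27ac peak had a median of 21169 bp (quartiles 826 and 68960), and 559 members (61.0%, 57.8 to 64.2) were more than 10000 bp away, here called far. Another 239 members (26.1%, 23.3 to 29.1) were within 1000 bp, here called near, and 118 (12.9%) lay between these limits. Among the near members 58 were within 100 bp of H3K27ac and a further 134 were within 500 bp. At the other end, 156 members (17.0%) had no H3K27ac peak within 100000 bp.

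**Figure D1:**
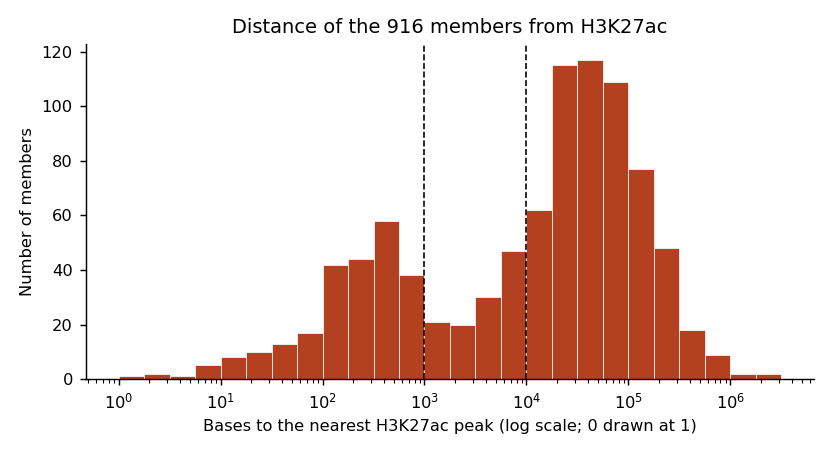
Number of members by distance to the nearest H3K27ac peak in bp on a log scale, with dashed lines at 1000 and 10000 bp. The counts form a smaller mound below 1000 bp (239 members) and a larger one above 10000 bp (559 members), with 118 members between them.

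The limits of the rule cut through close values. Just inside the TSS limit were Fam69a at 998 bp and Zmpste24 at -996 bp (negative is upstream), and just outside it were Cit at 1002 bp and Hs3st3b1 at -1003 bp. Among the members nearest to H3K27ac were those at Cbx8, with a gap of 3 bp, and Mtmr3, with 4 bp. The acetylated promoter peaks with the fewest shared bases were at Ndufb2 (2 bp), Tssc4 (7 bp) and Tsc22d1 (8 bp). Near members are thus separated from the comparison by a few bases at the margin, and 1 member abutted an H3K27ac peak without sharing a base.

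H3K27ac peaks at the members' genes are given here as a description, since near and far were set by the gap to H3K27ac. The neighbouring H3K27ac peak was itself assigned to the member's gene in 209 of 239 near members (87.4%). An H3K27ac peak within 1000 bp of a TSS was assigned to the same gene for 200 of 239 near members (83.7%, 78.4 to 88.1) and for 11 of 559 far members (1.97%, 0.986 to 3.49). Any H3K27ac peak at all was assigned to the gene of 384 members (41.9%), of 216 near ones (90.4%) and of 108 far ones (19.3%). So 451 far members (80.7%, 77.2 to 83.9), 412 of them at protein-coding genes, had no H3K27ac peak at their gene in this list. The share of all protein-coding genes with any H3K27ac peak assigned is not given here, so these shares have no background. A promoter H3K27ac peak was at 26.2% of all protein-coding genes. A peak missing from a list can also be signal below the threshold of the call, which depth sets.

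Centres upstream of the TSS were more frequent among near than far members, and H3K27ac more often lay on the transcribed side of near members. These shares were counted separately, not jointly. Members miss H3K27ac by rule and near was set by the gap to it, so the rule can partly set these shares. The peak centre was upstream in 152 of 239 near members (63.6%, 57.2 to 69.7) and in 264 of 559 far members (47.2%, 43.0 to 51.5). Of 183 near members with a RefSeq window and H3K27ac within 1000 bp on 1 side, 120 had it on the transcribed side (65.6%, 58.2 to 72.4). The neighbouring H3K27ac peak covered the TSS itself in 40 of 193 (20.7%). A further 14 near members sat between H3K27ac peaks on both sides, among them Klf9, Tbx15, Pim1 and Pabpc1. Klf9 encodes a Krüppel-like factor, Tbx15 a T-box factor of fat and skeleton, Pim1 a serine/threonine kinase and Pabpc1 the cytoplasmic poly(A)-binding protein; apart from Tbx15 these were named after their values were seen. At Pabpc1 the gaps were 11 bp and 281 bp, and at Tbx15 they were 191 bp and 166 bp.

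Over all members 465 of 916 centres were upstream (50.8%), against 295 of 679 acetylated promoter peaks (43.4%), a difference of 7.32 points (adjusted p = 0.0103, Fisher's exact test). Without the near members it was 313 of 677 (46.2%) and the difference 2.79 points (adjusted p = 0.372, Fisher's exact test; chosen after seeing the data). With the near members moved into the comparison group, which raises that group's share, the difference was -2.46 points (adjusted p = 0.448, Fisher's exact test). With a TSS limit of 500 bp it was 5.65 points (adjusted p = 0.195, Fisher's exact test). Members are the peaks that miss H3K27ac, so the overlap rule can itself partly set their position around the TSS. The peak itself spanned the TSS in 290 members (31.7%) and in 286 acetylated promoter peaks (42.1%). Wider peaks can span it more easily, and peak width is itself tied to the overlap rule.

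**Figure D2:**
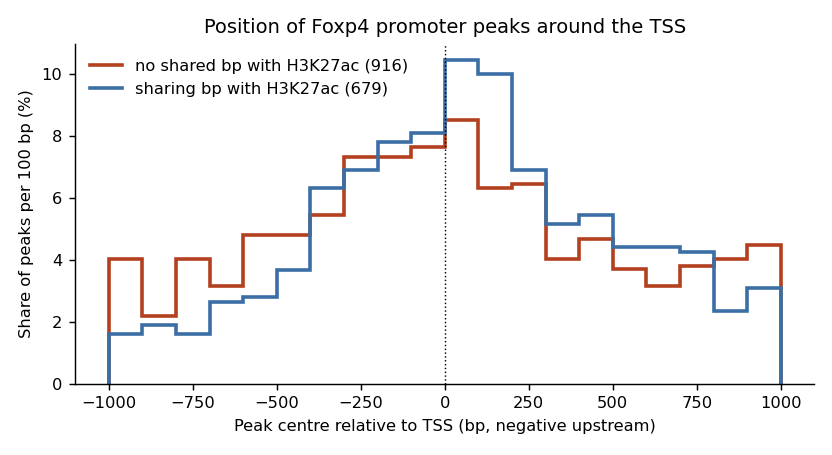
Share of peaks per 100 bp against the distance of the peak centre from the TSS in bp, for 916 members and 679 acetylated promoter peaks. Acetylated promoter peaks have the higher share just downstream of the TSS. Members have the higher share at 500 to 1000 bp upstream and at 800 to 1000 bp downstream.

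Near members had the largest share of CpG-rich promoters among the 3 distance classes. A window counted as CpG-rich at a GC content of at least 50% and an observed to expected CpG ratio of at least 0.6. This held for 161 of 193 near members (83.4%, 77.4 to 88.4), for 51 of 93 members in between (54.8%, 44.2 to 65.2) and for 252 of 418 far members (60.3%, 55.4 to 65.0), beside 33.5% of all RefSeq windows. The shares by distance class here and above are given with their intervals and were not tested against each other. Over all members it held for 464 of 704 (65.9%) and over acetylated promoter peaks for 424 of 543 (78.1%), a difference of -12.2 points (adjusted p = 8.78e-06, Fisher's exact test). The deposited CpG island annotation gave the same direction, with 39 members (4.26%) and 54 acetylated promoter peaks (7.95%; adjusted p = 0.00938, Fisher's exact test). Among these promoter peaks that column named CpG islands only for intron peaks, in 39 of 212 members (18.4%) and 54 of 164 acetylated peaks (32.9%). Its call was lost under 4 of the alternatives given at the end, and within the promoter-TSS class, where the column names no CpG island, it could not be tested.

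**Figure D3:**
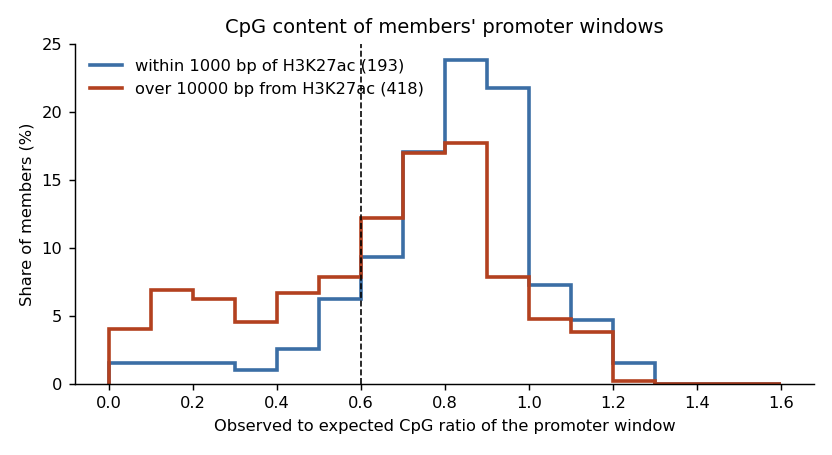
Observed to expected CpG ratio of the 300 bp promoter window, as the share of 193 near and 418 far members per 0.1 of the ratio, with a dashed line at 0.6. Both curves peak at 0.8 to 0.9, and the far members have a second spread of low ratios.

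Letters of other promoter elements were searched on both strands. The GC box GGGCGG was in 60.4% of member windows (near 71.5%, far 55.7%), 69.1% of acetylated ones and 35.7% of all windows. The ETS letters CCGGAAG were in 15.3% of member windows (near 21.2%, far 12.9%), 17.5% of acetylated ones and 8.86% of all windows. The TATA letters TATAAA were in 7.67%, 5.71% and 13.6%, in the same order of members, acetylated and all windows. CCAAT, the letters of the NF-Y factor, were in 40.8%, 34.8% and 37.4%. These shares were not tested. A gene on the opposite strand started within 1000 bp for 118 of 704 members (16.8%, 14.1 to 19.7), for 127 of 543 acetylated promoter peaks (23.4%, 19.9 to 27.2) and for 15.1% of all windows.

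By deposited class, 589 members (64.3%) were promoter-TSS, 212 (23.1%) intron, 54 exon, 33 5′ UTR, 22 transcription end sites, 5 non-coding and 1 3′ UTR. The members' introns were first introns in 186 of 212 (87.7%). Acetylated promoter peaks had a similar make-up, with 64.7% promoter-TSS, 24.2% intron, 4.27% exon and 3.98% 5′ UTR. Repeats were named at 12 members (1.31%), 7 of them SINEs, and at 3 acetylated promoter peaks (0.442%; adjusted p = 0.151, Fisher's exact test). Non-coding RNA genes took 69 members (7.53%) and 46 of the 679 acetylated promoter peaks. Genes with a microRNA symbol took 19 members (2.07%) and 10 acetylated promoter peaks. The share at protein-coding genes was 91.0% against 91.8% (adjusted p = 0.653, Fisher's exact test).

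Peak scores are whole numbers from the authors, and their median at members lay between those of the other groups. It was 31 (quartiles 27 and 36) at members and 33 (27 and 41) at acetylated promoter peaks. At the 14551 Foxp4 peaks beyond 1000 bp of a TSS and outside H3K27ac, here called distal, it was 27 (26 and 34). Widths had medians of 366, 427 and 349 bp. A wider peak is more likely to share a base with H3K27ac, so the rule itself favours narrower members. A score of at least 40 was reached by 199 members (21.7%) and 187 acetylated promoter peaks (27.5%), a difference of -5.82 points (adjusted p = 0.0156, Fisher's exact test) that shrank to -3.52 points without the recurrent scores described next (adjusted p = 0.287, Fisher's exact test). Among distal peaks 13.8% reached a score of at least 40, a smaller share than among members (adjusted p = 3.52e-10, Fisher's exact test over 4 features). That comparison was added after seeing the data. Scores of at least 50 were held by 33 members (3.60%) and 56 acetylated promoter peaks (8.25%).

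The scores 21, 27, 34, 41, 49 and 57 recurred far more often than their neighbours and were held by 12323 Foxp4 peaks (73.1%). They were held by 464 members (50.7%) and 235 acetylated promoter peaks (34.6%), a difference of 16.0 points (adjusted p = 1.32e-09, Fisher's exact test). Among the distal Foxp4 peaks outside H3K27ac the share was 78.0% (adjusted p = 1.01e-67, Fisher's exact test over 4 features in a comparison added after seeing the data). The scores were picked as frequent over the whole Foxp4 list. Distal peaks made up 14551 of its 16856 peaks on chromosomes 1 to 19, so this comparison was partly set by that choice. Near members held them in 33.9%, close to acetylated promoter peaks, and far members in 58.3% (54.1 to 62.4). CpG-rich members held them in 39.7% (35.2 to 44.3) and the other members with a window in 66.2% (59.9 to 72.2). The recurrent scores thus moved with distance from H3K27ac and with CpG content, and their part in those results was not tested. Without the recurrent scores 452 members were left, and 233 of them (51.5%) were far.

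**Figure D4:**
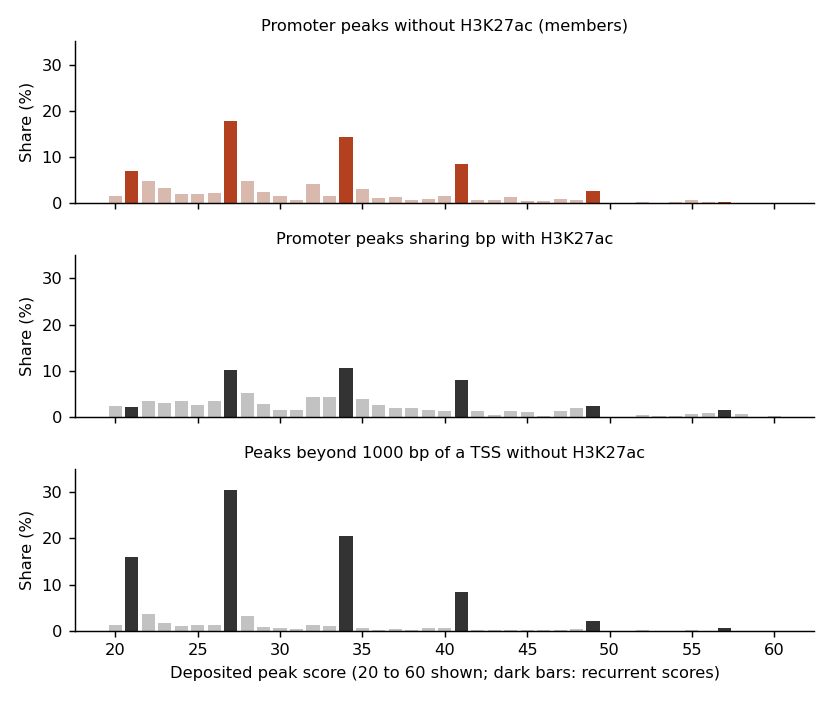
Share of peaks at each deposited score from 20 to 60, for members, acetylated promoter peaks and distal peaks without H3K27ac, with the 6 recurrent scores in dark. The recurrent scores hold 50.7% of members, 34.6% of acetylated promoter peaks and 78.0% of distal peaks.

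Members were also less often than distal peaks at genes with a further Foxp4 peak. A second Foxp4 peak was assigned to the gene of 388 members (42.4%), against 47.3% of acetylated promoter peaks (adjusted p = 0.0847, Fisher's exact test; 0.0278 without the near members) and 70.5% of distal peaks (adjusted p = 5.42e-65, Fisher's exact test). Each peak was counted on its own, so a gene with many peaks entered the count once per peak. Peaks of 1 gene are thus not independent, which these p-values do not allow for. Neither gene length nor the space between genes was part of this comparison. Per chromosome, members made up from 48.6% of the Foxp4 promoter peaks on chromosome 16 to 68.1% on chromosome 1.

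**Figure D5:**
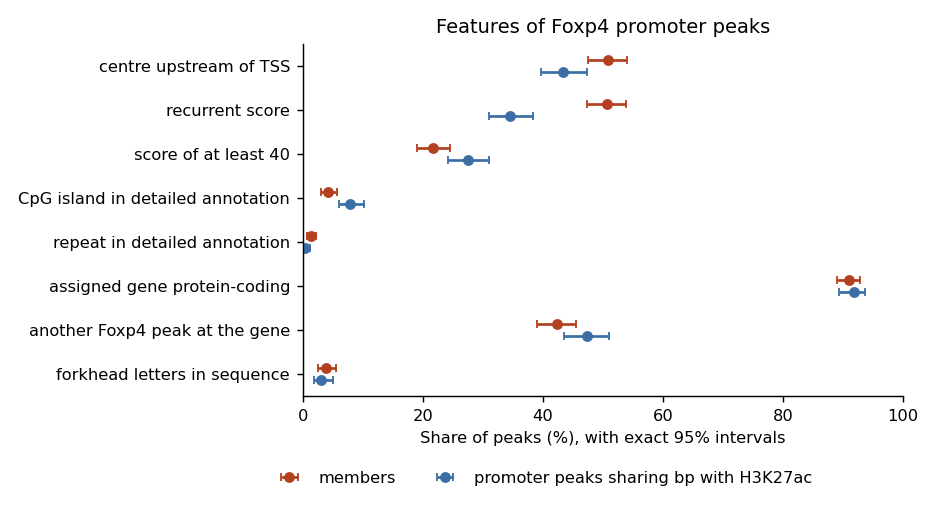
Share of 916 members and 679 acetylated promoter peaks with each of the 8 features tested, in percent, with exact 95% intervals (704 and 543 promoters for the forkhead letters). The widest separation is at recurrent scores (50.7% against 34.6%).

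The highest-scoring member, at 245, was assigned to the microRNA gene Mir101c and lay in a block of 25 Foxp4 peaks within 50 kb, 24 of them in satellite repeats, with scores of 86 to 372. How reads of such repeats were placed is not given in the sources used here. The next member was at Psen2, which encodes the presenilin subunit of gamma-secretase, with a score of 91 at chr1:180256140-180256667. It lay at -103 bp from the TSS and 7 bp from an H3K27ac peak. Fzd6, a Frizzled receptor for Wnt ligands, followed with 74 in its first intron at chr15:39006558-39006891, 9 bp from H3K27ac. Of the 20 highest-scoring members at named protein-coding genes, with scores from 55 to 91, 12 were far, 6 were near and 10 had no H3K27ac peak at the gene. Over all members 61.0% were far, 26.1% were near and 41.9% had an H3K27ac peak at the gene. At a score of 55 there were 6 such members, of which 3 (2 near, 1 far) fell outside the 20 because ties were broken by chromosome and start.

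The far members with the highest scores were at genes of varied function. Etv5 had a score of 71, with the stretch shown above, and its nearest H3K27ac peak was 27187 bp away. Htt, which encodes huntingtin, had 70 at chr5:34761385-34761761, and its gap was 194570 bp. Id4, an inhibitor of basic helix-loop-helix factors, had 66 and a gap of 284360 bp. Neither Htt nor Id4 had an H3K27ac peak assigned, though 4 and 2 Foxp4 peaks were. Zdhhc12 (a palmitoyltransferase, score 66), Wbp1 (63) and Ccnk (cyclin K, 58) were also far with no H3K27ac peak at the gene. Further members of the top 20 were at Plcl1 (66), a catalytically inactive relative of phospholipase C, and at Pou3f1 (57), a POU-domain factor. Bambi (55), a decoy receptor of the TGF beta family, had 4 Foxp4 peaks and no H3K27ac peak.

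At a few genes Foxp4 had promoter peaks of both kinds, or H3K27ac was assigned at a start other than the member's. Mxi1, which encodes a Max-binding antagonist of Myc, had a member with a score of 67 at 15395 bp from H3K27ac and an acetylated Foxp4 promoter peak with a score of 33. In all, 18 protein-coding genes (0.0871% of all) had both kinds of Foxp4 promoter peak, beside 3.97% with a member and 2.96% with an acetylated one. At 12 of the 18 the member was within 1000 bp of H3K27ac, beside 26.1% of all members. An acetylated Foxp4 promoter peak already places H3K27ac at a start of the gene, so that count was partly set by the choice of genes. At Pparg, which encodes the nuclear receptor that drives fat cell formation, the member at chr6:115421746-115422131 had a score of 55 and lay at -128 bp from the start of transcript NM_011146. The nearest H3K27ac peak was 53927 bp away, although 2 H3K27ac peaks within 1000 bp of a TSS were assigned to Pparg.

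A few genes had 2 members each. There were 14 such genes, 11 of them named protein-coding ones. Pla2g16, a phospholipase abundant in fat cells, had scores of 37 and 34 at 90 and 807 bp from the TSS. Plcl1 had 66 and 27, and Cdc14a, a dual-specificity phosphatase, 49 and 23. Exosc6, an RNA exosome subunit, had 28 and 34, and Brk1, a subunit of the WAVE actin complex, 32 and 27. Others were Mcub, Phactr2, Plekhb1, Srpk1 and Zmpste24.

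Members were counted in gene lists for fat cells, signalling and other cell types. Of 20665 protein-coding genes on chromosomes 1 to 19, 821 had a member (3.97%), and of the 530 genes in 22 lists 27 had one (5.09%). The median list had 4.36%, 11 lists were above 3.97% and 9 had none. An acetylated Foxp4 promoter peak was at 612 of all protein-coding genes (2.96%), the share against which its counts in the lists below are to be read. Of the 27 genes 14 were far and 10 near, and 15 had an H3K27ac peak assigned, as did the genes of 41.9% of all members. These counts are descriptions and were not tested. With the recurrent scores left out the lists had 17 genes (3.21%) beside 2.03% of all protein-coding genes. Other settings lay closer to their background, with 3.21% beside 2.87% without near members and 2.83% beside 2.53% at a TSS limit of 500 bp. Further settings are given at the end.

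Among 24 adipogenic transcription factors Pparg (55) and Klf5 (28), a Krüppel-like factor of early fat differentiation, had members, and 6 had an acetylated Foxp4 promoter peak. Among 24 thermogenic genes there were Ppargc1a (34), the coactivator of mitochondrial biogenesis, and Tbx15 (26), and none had an acetylated one, beside 2.96% of all genes. The Ppargc1a member lay at -54 bp from the TSS and 42296 bp from the nearest of the 4 H3K27ac peaks at that gene. Lipid synthesis had Fads2 (47), a fatty acid desaturase, and Acss2 (27), an acetyl-CoA synthetase, out of 20 genes. Glycolysis had Pdk1 (40), a kinase that inhibits pyruvate dehydrogenase, out of 19, and fatty acid oxidation and the TCA cycle had Cpt1b (27), a carnitine palmitoyltransferase, out of 29. None of the 28 lipid droplet and lipolysis genes, 25 insulin and mTOR genes or 22 circadian genes had a member, beside 3.97% of all protein-coding genes. In these 3 lists 64.3%, 72.0% and 81.8% of genes had an H3K27ac promoter peak, beside 26.2% of all, which leaves fewer promoters that could hold a member. Acetylated Foxp4 promoter peaks were at 4, 6 and 5 genes of these 3 lists, beside 2.96% of all genes.

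Signalling and chromatin lists held the remaining members. Wnt signalling had 3 of 32 genes: the receptor Fzd6 (74), the feedback inhibitor Axin2 (35) and the secreted antagonist Sfrp1 (34), and none of the 32 had an acetylated Foxp4 promoter peak. Axin2 and Sfrp1 were more than 10000 bp from H3K27ac, at gaps of 145192 and 154128 bp. The TGF beta and BMP list had the ligand Gdf5 (48) and the activin-binding protein Fst (45) of 31 genes, and the Notch list had Psen2 (91) and the target Hes1 (24) of 23. ETS factors had 4 of 22 (18.2%, 5.19 to 40.3), namely Etv5 (71), Fli1 (41), Elf2 (27) and Ets2 (26), of which Etv5 and Fli1 were far and Elf2 and Ets2 near. Chromatin regulators had 4 of 43: the remodeller Chd7 (47), the histone demethylases Kdm4a (26) and Kdm3a (23), and the histone methyltransferase Kmt2a (21). Fat progenitor genes had Icam1 (34) and Wnt2 (24) of 21, and skeletal muscle had the myosin gene Myh1 (27) of 16. No member was at any of 30 forkhead, 24 extracellular matrix, 18 immune, 14 endothelial, 15 neuronal or 14 liver genes, beside 3.97% of all protein-coding genes.

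Gene families were counted by symbol, beside the 3.97% of all protein-coding genes, with no test. Of 1104 olfactory receptor genes 8 had a member (0.725%, 0.313 to 1.42), and all 8 peaks held a recurrent score and 7 were far. Vomeronasal receptors of the Vmn1r family had 4 of 230, with scores of 22 to 27, all far. These receptors are known from sensory neurons. Both families hold similar gene copies, and how reads were shared among copies was not tested. Solute carriers had 21 of 362 genes (5.80%, 3.63 to 8.73), led by Slc16a11 (49), and zinc finger genes of the Zfp group 17 of 388 (4.38%, 2.57 to 6.92), led by Zfp661 (56). Trim genes had 7 of 68 (10.3%, 4.24 to 20.1) and Rab GTPases 5 of 55 (9.09%, 3.02 to 20.0), led by Rab30 (65). Genes with a Psm symbol, of the proteasome and its associated proteins, had 4 of 50 (8.0%, 2.22 to 19.2), led by Psme4 (47). None of 91 potassium channel genes had a member. Slc16a11 and Psme4 were named after their values were seen.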

How the data were processed

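ChIP-seq of Foxp4 and of H3K27ac was analysed from 1 deposited peak list each, mapped to libraries by title; input DNA was not analysed. Bowtie2, Picard, SAMtools, MACS2, deepTools 3.3.0 and mm10 are named in the submitters' processing notes, with no settings. Per the file headers, the deposited lists are narrowPeak files annotated with HOMER annotatePeaks on mm10. The deposited scores are the authors' whole numbers, from 20 upwards, on a scale not given in the sources used here, and scores were compared only within the Foxp4 list. Read numbers are unknown, so the depth behind each list is too; lower depth lowers the number of peaks.

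Distances, classes, genes and CpG or repeat annotations are those deposited. Overlap meant at least 1 shared bp. Member shares were compared by two-sided Fisher's exact tests with Benjamini-Hochberg adjustment over 8 peak features (threshold 0.05), with exact Clopper-Pearson 95% intervals (scipy 1.17.1, pandas 2.3.3, Python 3.11.15; tested on simulated data). In the test of CpG-rich windows, that feature took the place of the deposited CpG island annotation among the 8. Promoter windows and gene types for the background came from RefSeq GRCm38.p6; windows on chromosome 18 were not used here, and windows were matched to 692 of 902 genes. A score counted as recurrent when 100 or more Foxp4 peaks held it and this number exceeded 3 times that of each adjacent score. Family symbols were counted by prefix and number, with look-alike symbols left out of the Rps, Rpl and Rab counts.

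Named genes were protein-coding genes with an official symbol (ties broken by chromosome and start): the 20 highest-scoring members, the 5 highest-scoring far members with no H3K27ac at the gene, genes with 2 members, up to 4 per list, and the peaks nearest to the limits (2 on either side of the TSS limit, 3 on either side of the overlap limit). The members and lists were chosen with earlier results of these data known. Some genes that the rule names are not reported here.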

Additional observations from a re-analysis of the deposited data

How the results depend on the processing

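Of 117 values recomputed under alternatives, 78 kept their direction and call, stayed within their interval or, for member counts, changed by less than 1.5 times; these counts include 677 members with none within 1000 bp of H3K27ac and 1032 with the higher-scoring 50% of H3K27ac peaks. Including X and Y, and leaving out the satellite block on chromosome 9 (added after seeing the data), changed no call. The gene list shares under every alternative were also added after seeing the data. The list shares below are to be read beside the share of all protein-coding genes with a member, which was 3.97% in the main setting. It was 2.87% with near members moved to the comparison, 2.42% with the higher-scoring 50% of Foxp4 peaks and 2.03% without recurrent scores. At a TSS limit of 500 bp it was 2.53%, at 3000 bp 7.40% and with the authors' promoter class 2.60%. In the main setting 61.0% of members were far, 41.9% had an H3K27ac peak at their gene, and 5.09% of list genes had a member. The cause of the changes was not tested, except where members are removed or added by construction.

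Without near members (added after seeing the data) the upstream difference was 2.79 points and no longer passed, and that of another Foxp4 peak was -6.66 and passed. With near members moved to the comparison, the upstream difference reversed to -2.46 points and that of forkhead letters to -0.342, the CpG island difference was -2.43 and no longer passed, that of another Foxp4 peak was -6.66 and passed, far members were 82.6%, genes with an H3K27ac peak 24.8% and list genes 3.21%. With the higher-scoring 50% of H3K27ac peaks, far members were 72.6% and genes with H3K27ac 25.9%. With the higher-scoring 50% of Foxp4 peaks there were 557 members, the differences for scores of at least 40 (-3.23 points) and CpG islands (-3.49) no longer passed, far members were 57.3%, genes with H3K27ac 45.2% and list genes 3.02%. Without recurrent scores there were 452 members, the differences for scores of at least 40 (-3.52) and CpG islands (-2.36) no longer passed, that of protein-coding genes reversed to 2.15, far members were 51.5%, genes with H3K27ac 48.9% and list genes 3.21%.

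At a TSS limit of 500 bp there were 573 members, the upstream (5.65) and CpG island (-1.77) differences no longer passed, and list genes were 2.83%. At 3000 bp there were 1815 members, the differences for repeats (11.6) and protein-coding genes (-2.96) passed, far members were 57.4%, genes with H3K27ac 46.7% and list genes 10.9%. With the authors' promoter class there were 589 members, the difference for scores of at least 40 (-6.29) no longer passed, that of CpG islands was 0 by construction, that of protein-coding genes reversed to 0.395, and list genes were 3.02%. The share of recurrent scores kept its direction and call under each alternative in which it could be computed. No paired analysis was possible because each antibody has 1 library.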
